A study of Homo sapiens with 2 samples.

Results

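The insulin-like growth factor (IGF) axis genes examined here were the receptor genes IGF1R, INSR and IGF2R, the ligand gene IGF2, and the genes of 6 binding proteins, IGFBP2 to IGFBP7. They were selected by symbol from the 21382 genes of the deposited expression table, and all 10 were found there, at 1 locus each. The expression values came from RNA-Seq of total RNA of the human prostate cancer (PCa) lines RC77 T/E and MDA PCa 2b. Neither was treated, and each gave 1 paired-end, directional library. MDA PCa 2b cells were grown in a modified Ham's F-12 medium that held 20% fetal bovine serum, 5 ug/ml of recombinant human insulin and 10 ng/ml of mouse epidermal growth factor, with cholera toxin, phosphoethanolamine, hydrocortisone and selenite. RC77 T/E cells were grown in a keratinocyte medium that the labels list with epidermal growth factor and pituitary extract. The study calls it Keratinocyte-SFM, by its name a serum-free medium, and names no insulin for it. What the base medium itself held is not stated, so insulin may have been present. Cell line and medium therefore differ together and cannot be told apart. Each line is a continuous culture that stands for itself only, and with 1 library per line no difference has a replicate error, a test or a p-value.

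The IGF ligands are secreted hormones that act through receptor tyrosine kinases of the insulin receptor family. IGF1R and INSR encode such kinases and can pair into hybrid receptors, whereas IGF2R encodes a receptor without a kinase that takes IGF2 to the lysosome for breakdown and also sorts enzymes tagged with mannose 6-phosphate. The binding proteins are secreted, hold the ligands outside the cell, and can lower or extend their action until proteases cut them. In the prostate, IGF signalling supports growth and survival of the epithelium, and IGFBP3 is a known substrate of prostate-specific antigen.

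Expression was given as TPM, the abundance of a gene's transcripts after division by length and scaling to a fixed library total, which keeps no read number, so the depth of either library is unknown. Most deposited values from 1 TPM upward had lost their decimal mark. The mark was put back by requiring that the deposited mean and standard error over the lines came out as written, which fixed 9 of the 10 genes and left IGF2R open by a factor of 10 or 100. The difference between the lines is given as a plain fold and as log2 of (RC77 T/E TPM + 1) over (MDA PCa 2b TPM + 1), which understates the change of low genes, and where values are paired that of RC77 T/E stands first. A gene whose mean over the lines reached 1 TPM was taken as expressed. Over the 11624 such genes the median of this log2 ratio was -0.15.

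The cell lines had similar summed levels of binding protein transcripts, 754 TPM in RC77 T/E cells against 659 TPM in MDA PCa 2b, but not the same binding proteins. This likeness rests on IGFBP7 and on the TPM scaling, as no other scaling was tried for the sums. MDA PCa 2b cells expressed IGFBP2 and IGFBP3, and RC77 T/E cells expressed IGFBP7, IGFBP6 and IGFBP4. Between the receptor kinases, IGF1R was similar in both lines and INSR was lower in RC77 T/E cells, and the ligand gene IGF2 was under 1 TPM in both. At a threshold of 1 TPM, RC77 T/E cells expressed 8 of the 10 genes, beside 52.8% of all genes, and MDA PCa 2b expressed 6, beside 49.6%. IGF1R, INSR, IGF2R, IGFBP2 and IGFBP3 passed it in both lines, as 45.7% of all genes did, IGFBP5 in MDA PCa 2b alone, IGFBP4, IGFBP6 and IGFBP7 in RC77 T/E cells alone, and IGF2 in neither. These 4 of 10 genes that passed in a single line stand beside 11.0% of all genes.

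**Figure D1:**
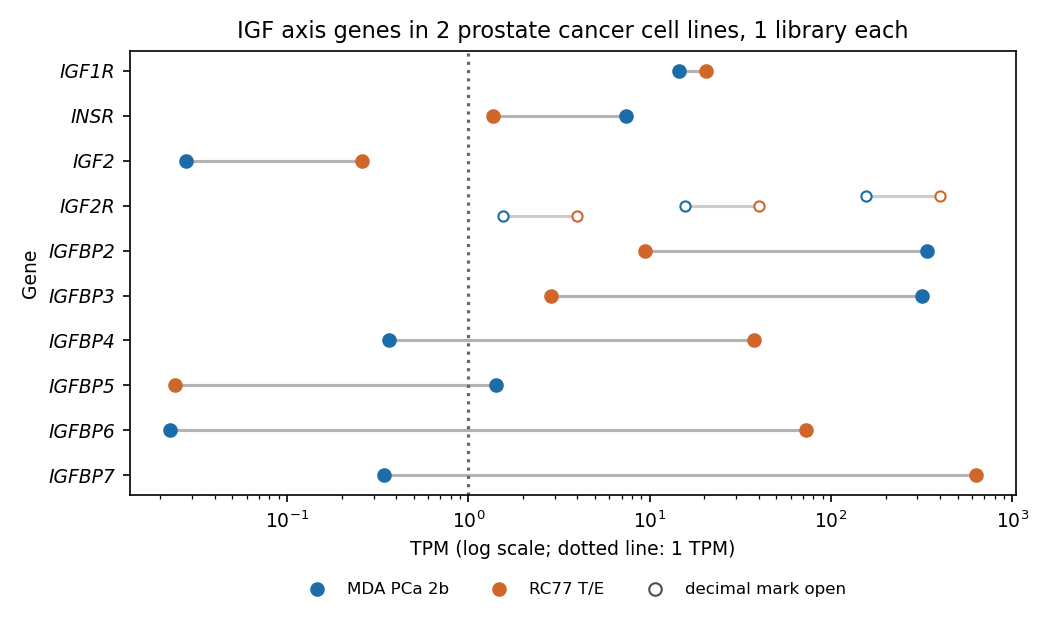
TPM (log axis) of the 10 IGF axis genes in RC77 T/E (orange) and MDA PCa 2b cells (blue), 1 library each; open circles for IGF2R are the 3 decimal positions that match the table. IGFBP2, IGFBP3 and IGFBP5 lie to the right in MDA PCa 2b, IGFBP4, IGFBP6 and IGFBP7 in RC77 T/E cells, and the points of IGF1R lie close together at 20.4 and 14.6 TPM.

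At the level of ligands, neither cell line held more than traces of IGF transcripts. IGF2 (ENSG00000167244, chromosome 11 of GRCh38, 2129112 to 2158391), which encodes the fetal-type growth factor, was at 0.260 TPM in RC77 T/E cells against 0.0278 TPM in MDA PCa 2b. It was the only one of the 10 genes under 1 TPM in both lines, and its ratio of 9.35 rests on values near 0. The annotation places the read-through gene INS-IGF2, which was not analysed here, on the same strand of this locus, so their reads may be shared. IGF1, which encodes the main circulating ligand and is no member of the set, is listed at 0 for RC77 T/E and was at 0.505 TPM in MDA PCa 2b. A listed 0 is no sure absence in this table, since EEF1A1, a translation factor gene that every cell uses, is at 2393 TPM in RC77 T/E and listed at 0 for MDA PCa 2b. H19, the noncoding RNA gene that shares imprinting control with IGF2, was at 0.858 against 0.0578 TPM.

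Among the receptors, IGF1R (ENSG00000140443, chromosome 15, 98648539 to 98964530) was at 20.4 TPM in RC77 T/E cells against 14.6 TPM in MDA PCa 2b. The fold was 1.40 and the log2 ratio 0.46, which 30.0% of the expressed genes reached or exceeded in that direction. INSR (ENSG00000171105, chromosome 19, 7112255 to 7294414), which encodes the insulin receptor, was at 1.37 TPM in RC77 T/E cells against 7.43 TPM in MDA PCa 2b, 5.44-fold higher in MDA PCa 2b with a log2 ratio of -1.83. This ratio was reached or exceeded in its direction by 7.28% of the expressed genes. The splice forms of INSR, which differ in their affinity for IGF2, cannot be separated in a table of gene values.
The ratio of IGF1R to INSR within a library does not depend on how the libraries were scaled. It was 14.9 for RC77 T/E and 1.96 for MDA PCa 2b. The sum of both genes was 21.8 TPM in RC77 T/E cells against 22.0 TPM in MDA PCa 2b, so the lines held a near-equal total of these receptor transcripts in different proportions.
IGF2R (ENSG00000197081, chromosome 6, 159969082 to 160113507) was at 4.0, 40.0 or 400.1 TPM in RC77 T/E cells and, in the same order of decimal positions, at 1.56, 15.6 or 156 TPM in MDA PCa 2b. It was 2.56-fold higher in RC77 T/E cells at each of these positions. On the log2 scale with 1 TPM added the difference was 0.96 at the lowest position and 1.35 at the highest, so the lowest lies just inside 2-fold and the highest outside it. Centring all ratios on the median of the expressed genes put the lowest position at 1.12, also outside 2-fold. The nearest related gene by function, M6PR, which encodes the smaller mannose 6-phosphate receptor, was at 64.2 TPM in RC77 T/E cells against 46.8 TPM in MDA PCa 2b.

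The binding proteins carried the larger differences. At 2-fold, 7 of the 10 genes lay apart, beside 39.3% of the expressed genes. The shares given here set open decimal marks at their lowest position, where the added 1 TPM shrinks ratios most, so they may be too low. No share was computed at the highest position. RC77 T/E cells were higher in 3 of the 7 genes, beside 19.4%, and MDA PCa 2b in 4, namely INSR, IGFBP2, IGFBP3 and IGFBP5, beside 20.0%. The count for RC77 T/E was 4 with IGF2R at its highest position. It was 5, IGF2 and IGF2R included, with 0.1 TPM added in place of 1 TPM. No share of the expressed genes was computed for these other settings. At 4-fold, 5 of the 10 genes lay apart, beside 15.9% of the expressed genes, and with 1 TPM added all 5 were binding proteins. With 0.1 TPM added, those higher in MDA PCa 2b rose from 2 to 4 genes, and INSR, at a log2 ratio of -2.36, was among them with IGFBP5. At 1 TPM, IGFBP2 and IGFBP3 were higher in MDA PCa 2b, beside 6.19% of the expressed genes in that direction, and IGFBP4, IGFBP6 and IGFBP7 in RC77 T/E cells, beside 9.69%. IGF2 and IGFBP5 had a mean under 1 TPM and are not among the expressed genes, but they are counted among the 10. The median log2 ratio of the 10 genes was 0.38 beside -0.15 for the expressed genes, a middle value between genes that lie far apart in both directions.

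**Figure D2:**
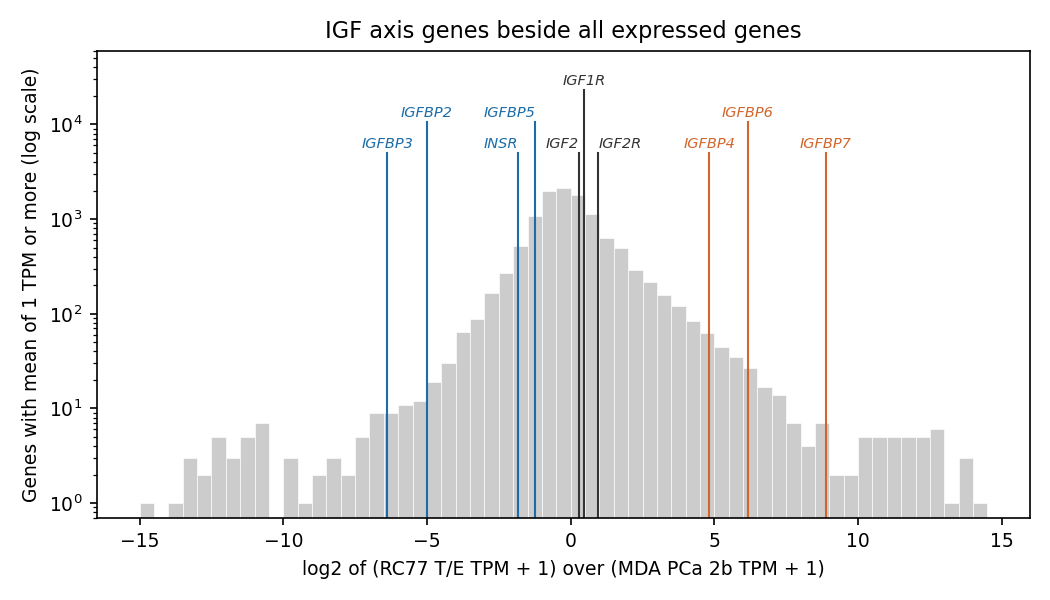
Number of expressed genes (log axis, bins of 0.5) by log2 ratio between the lines (positive values higher in RC77 T/E), with 1 TPM added, and the 10 IGF axis genes as vertical lines whose height carries no value. IGFBP3 at -6.38 and IGFBP7 at 8.88 lie farthest out among the 10, and IGF2, IGF1R and IGF2R lie between 0.29 and 0.96, inside 2-fold at the lowest decimal position.

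IGFBP2 (ENSG00000115457, chromosome 2, 216632828 to 216664436), a binding protein with an integrin-binding RGD motif that is often raised in PCa, was at 9.47 TPM in RC77 T/E cells against 338 TPM in MDA PCa 2b. It was 35.7-fold higher in MDA PCa 2b, with a log2 ratio of -5.02 that 0.723% of the expressed genes reached or exceeded. IGFBP3 (ENSG00000146674, chromosome 7, 45912245 to 45921874), the main carrier of IGFs in serum, was at 2.85 TPM in RC77 T/E cells against 319 TPM in MDA PCa 2b, a fold of 112 and a log2 ratio of -6.38. Between 197 and 2068 genes, a range that comes from the decimal marks of the others, were higher than IGFBP2 in MDA PCa 2b, and between 201 and 2193 were higher than IGFBP3.
IGFBP5 (ENSG00000115461, chromosome 2, 216672105 to 216695549), a binding protein that attaches to extracellular matrix, was at 0.0242 TPM in RC77 T/E cells against 1.42 TPM in MDA PCa 2b. Its plain fold of 58.8 in favour of MDA PCa 2b exceeded that of IGFBP2, but both of its levels were low and its log2 ratio was -1.24. IGFBP2 and IGFBP5 are neighbours on opposite strands, 7.67 kb apart with their 3′ ends facing each other. Both were higher in MDA PCa 2b, at levels that differed there from 338 to 1.42 TPM.
IGFBP1, which encodes the insulin-repressed binding protein of liver and is no member of the set, lies 18.6 kb from IGFBP3. It was at 0.0546 TPM in RC77 T/E cells against 2.47 TPM in MDA PCa 2b, the same direction as IGFBP3 at a lower level.

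IGFBP7 (ENSG00000163453, chromosome 4, 57030773 to 57110385), a secreted protein that binds IGFs weakly, binds insulin and is abundant in the vessel wall, was at 632 TPM in RC77 T/E cells against 0.342 TPM in MDA PCa 2b. Its log2 ratio of 8.88, reached by 0.370% of the expressed genes, was the largest of the 10 in either direction. Between 156 and 666 genes were higher than IGFBP7 in RC77 T/E cells. The gene POLR2B lies in part on the opposite strand of the same locus and was at 49.6 TPM in RC77 T/E cells against 37.5 TPM in MDA PCa 2b, while IGFBP7 stayed at 0.342 TPM in MDA PCa 2b.
IGFBP6 (ENSG00000167779, chromosome 12, 53097436 to 53102345), which encodes the binding protein that prefers IGF2 over IGF1, was at 72.5 TPM in RC77 T/E cells against 0.0227 TPM in MDA PCa 2b, with a log2 ratio of 6.17. IGFBP4 (ENSG00000141753, chromosome 17, 40443450 to 40457725), a binding protein that acts mainly as an inhibitor of IGF action, was at 37.6 against 0.364 TPM, with a log2 ratio of 4.82. The plain folds were 1846 for IGFBP7, 3199.8 for IGFBP6 and 103 for IGFBP4. Each of them divides by a value under 1 TPM whose error is unknown, in a library for which EEF1A1 is listed at 0, so their sizes should not be ranked.

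**Figure D3:**
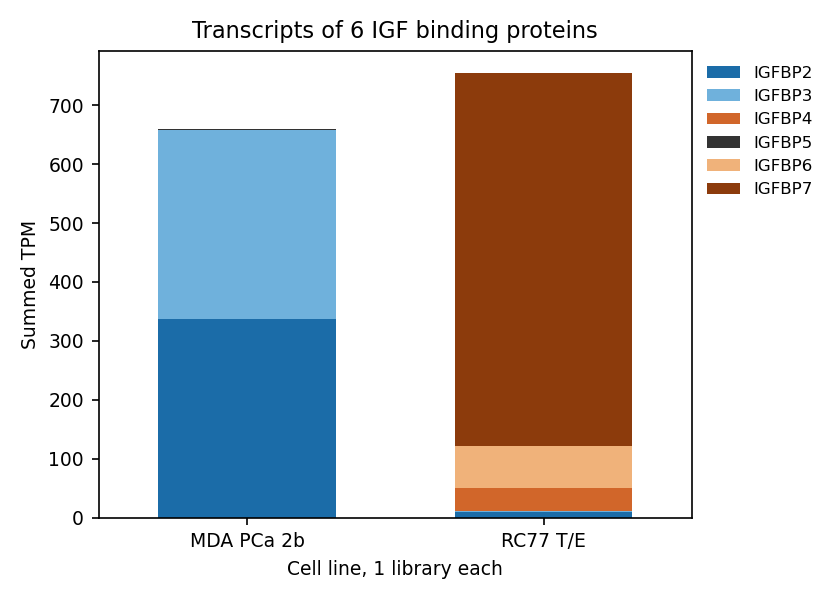
Summed TPM of 6 IGF binding protein genes in each cell line (stacked bars from 0, 1 library each). The bars reach 659 TPM in MDA PCa 2b, nearly all IGFBP2 and IGFBP3, and 754 TPM in RC77 T/E cells, mostly IGFBP7.

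The sum over the 6 binding proteins was 754 TPM in RC77 T/E cells against 659 TPM in MDA PCa 2b, and no open decimal mark enters these sums. They were not computed under another scaling of the libraries. IGFBP2 made up 51.2% and IGFBP3 48.4% of the sum in MDA PCa 2b, and together they made up 1.63% in RC77 T/E cells. IGFBP7 made up 83.8%, IGFBP6 9.61% and IGFBP4 4.98% in RC77 T/E cells, and together they made up 0.111% in MDA PCa 2b. The near-equal sums rest on IGFBP7, without which the sum in RC77 T/E cells was 122 TPM and that in MDA PCa 2b 659 TPM. Per transcript of IGF1R and INSR combined, the cells held 34.7 binding protein transcripts in RC77 T/E cells, against 30.0 in MDA PCa 2b.
Within MDA PCa 2b the order of levels was IGFBP2, IGFBP3, IGF1R, INSR, IGFBP5, IGFBP4, IGFBP7, IGF2 and IGFBP6, with IGF2R somewhere below IGFBP3 and above IGFBP5. Within RC77 T/E cells it was IGFBP7, IGFBP6, IGFBP4, IGF1R, IGFBP2, IGFBP3, INSR, IGF2 and IGFBP5, with IGF2R somewhere below IGFBP7 and above IGFBP3. Steps in this order as small as that from IGFBP2 to IGFBP3 in MDA PCa 2b, a ratio of 1.06, cannot be told from equality with 1 library.

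The sequence before the start sites of 4 binding protein genes is shown because IGFBP2, IGFBP3 and IGFBP5 were higher in MDA PCa 2b and IGFBP4 in RC77 T/E cells. The windows end at the RefSeq start site or, where the gene's exon in GENCODE begins before it, at that exon. Of 3 RefSeq windows for IGFBP2, the one nearest to the start of the principal GENCODE transcript was taken. Those of IGFBP2 and IGFBP3 lie inside the span that the table gives for the gene, outside its annotated exons. The windows lie on GRCh38.p14 at chr2:216633170-216633394 (plus strand) for IGFBP2, chr7:45921275-45921522 (minus) for IGFBP3, chr2:216695550-216695799 (minus) for IGFBP5 and chr17:40443200-40443449 (plus) for IGFBP4, each written 5′ to 3′ on the strand of the gene. Capitals mark the TATA letters TATAAA or TATATA and the GC box letters GGGCGG, each searched on both strands.
IGFBP2: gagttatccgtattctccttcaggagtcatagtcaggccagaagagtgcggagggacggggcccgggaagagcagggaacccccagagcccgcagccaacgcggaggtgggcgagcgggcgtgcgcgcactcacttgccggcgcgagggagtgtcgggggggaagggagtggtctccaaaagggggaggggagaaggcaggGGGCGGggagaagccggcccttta
IGFBP3: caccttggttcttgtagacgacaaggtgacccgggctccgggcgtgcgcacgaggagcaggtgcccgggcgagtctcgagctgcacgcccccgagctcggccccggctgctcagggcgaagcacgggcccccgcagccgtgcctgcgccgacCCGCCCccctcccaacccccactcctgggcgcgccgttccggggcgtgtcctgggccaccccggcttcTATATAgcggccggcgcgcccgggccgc
IGFBP5: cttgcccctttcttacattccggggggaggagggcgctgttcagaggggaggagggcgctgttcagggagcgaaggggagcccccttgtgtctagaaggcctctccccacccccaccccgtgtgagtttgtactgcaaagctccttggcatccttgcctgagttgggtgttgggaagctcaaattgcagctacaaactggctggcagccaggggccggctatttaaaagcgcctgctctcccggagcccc
IGFBP4: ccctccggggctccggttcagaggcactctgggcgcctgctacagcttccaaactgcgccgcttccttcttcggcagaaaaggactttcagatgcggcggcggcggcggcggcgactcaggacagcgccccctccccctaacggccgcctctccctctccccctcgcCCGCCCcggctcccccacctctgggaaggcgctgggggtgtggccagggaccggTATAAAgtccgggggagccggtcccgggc
IGFBP3 and IGFBP4, which differed in opposite directions, each had TATA letters close to the start site, beginning 30 and 29 bases before it. Such letters were in 12.8% of the 35116 RefSeq windows of 250 bases. Other letters of A and T, such as tatttaaa near the end of the IGFBP5 window, were not searched. GC box letters, in 42.6% of all windows, were found once for IGFBP2 and IGFBP4. For IGFBP3 they were found at 2 places, of which 1 runs past the end of the printed window, and for IGFBP5 at none. The share of G and C was 69.2% for IGFBP2, 76.0% for IGFBP3, 71.6% for IGFBP4 and 61.2% for IGFBP5 and for IGFBP6, beside a median of 58.0% over all windows. Of the receptor genes, IGF2R had GC box letters at 6 places and the E box letters CACGTG at 3, which occur at least once in 6.34% of windows. No TATA letters were found for IGF1R, INSR or IGF2R. The AP-1 letters TGANTCA, in 6.57% of windows, and the steroid receptor half-site letters AGAACA, in 12.4%, were found in the window of none of the 8 genes searched, IGF2 and IGFBP7 not being among them, and the FOXO letters TGTTTAC, in 2.98%, for IGFBP6 alone. These matches describe letters in a short window, not bound sites.

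Because several IGF binding proteins are known from stroma and vessels, marker genes of other cell types were read beside them. Of 10 fibroblast and smooth muscle markers, 2 passed 1 TPM in RC77 T/E cells, COL1A1 at 8.24 and ACTA2 at 2.92 TPM, while COL3A1 and LUM are listed at 0 and DCN was at 0.0531 TPM. In MDA PCa 2b only ACTA2 of this list, at 1.27 TPM, reached 1 TPM. The list summed to 12.2 TPM in RC77 T/E cells against 4.15 TPM in MDA PCa 2b. The summed level of 5 endothelial markers was 0.0833 TPM in RC77 T/E cells against 0.221 TPM in MDA PCa 2b, and PECAM1 is listed at 0 for RC77 T/E, where IGFBP7 was at 632 TPM. Of 5 leukocyte markers, CD68 was at 37.9 TPM in RC77 T/E cells, with PTPRC and LYZ listed at 0, and the list summed to 38.0 against 1.18 TPM. The 5 platelet markers summed to 1.07 against 0.285 TPM, with PF4 and GP9 listed at 0 for both lines.
All 5 epithelial markers passed 1 TPM in both lines, with KRT18 at 325 against 320 TPM. The 6 luminal prostate markers were all higher in MDA PCa 2b. KLK3, which encodes prostate-specific antigen, is listed at 0 for RC77 T/E but reached 5323 TPM in the other line. The 5 basal markers were all higher in RC77 T/E cells, with KRT5 at 4027 against 0.00435 TPM. The lines thus also differ in luminal and basal markers. With 1 library per line, all genes that differ do so together, so no link to the binding proteins can be read from this. The part of this contrast in the binding protein values was not tested.

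Of 81 further genes of the IGF pathway in 7 lists, 76 were in the table and 59 were expressed. Among the expressed genes, 20 lay 2-fold or more toward RC77 T/E and 12 toward MDA PCa 2b, or 20 and 15 with open decimal marks at the highest position, and the median log2 ratio was -0.08. Over all expressed genes the shares were 19.4% and 20.0%, with open marks at the lowest position only. Of 11 adaptors and inhibitors at the receptor, 8 lay 2-fold or more toward RC77 T/E, beside that 19.4%, and IRS1 and GRB10 toward MDA PCa 2b, beside 20.0%. SOCS3, a feedback inhibitor of cytokine and insulin signalling, was at 3.34 TPM in RC77 T/E cells against 0.0570 TPM in MDA PCa 2b. SOCS1, of the same family, was at 4.12 against 0.307 TPM. GRB14, an adaptor that inhibits the insulin receptor kinase, was at 2.60 against 0.483 TPM, and SHC1, which links receptors to RAS, was 9.43-fold higher in RC77 T/E cells with its decimal mark open. GRB2, the partner of SHC1, was at a fold of 0.503, just inside 2-fold in favour of MDA PCa 2b.
The insulin receptor substrates, named here after their values were seen, differed in opposite directions. IRS1 had an RC77 T/E to MDA PCa 2b ratio of 0.345, at 5.29 against 15.3 TPM or 10 times these values, and IRS2 one of 2.93, at 13.8 against 4.72 TPM or 10 times these values.

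**Figure D4:**
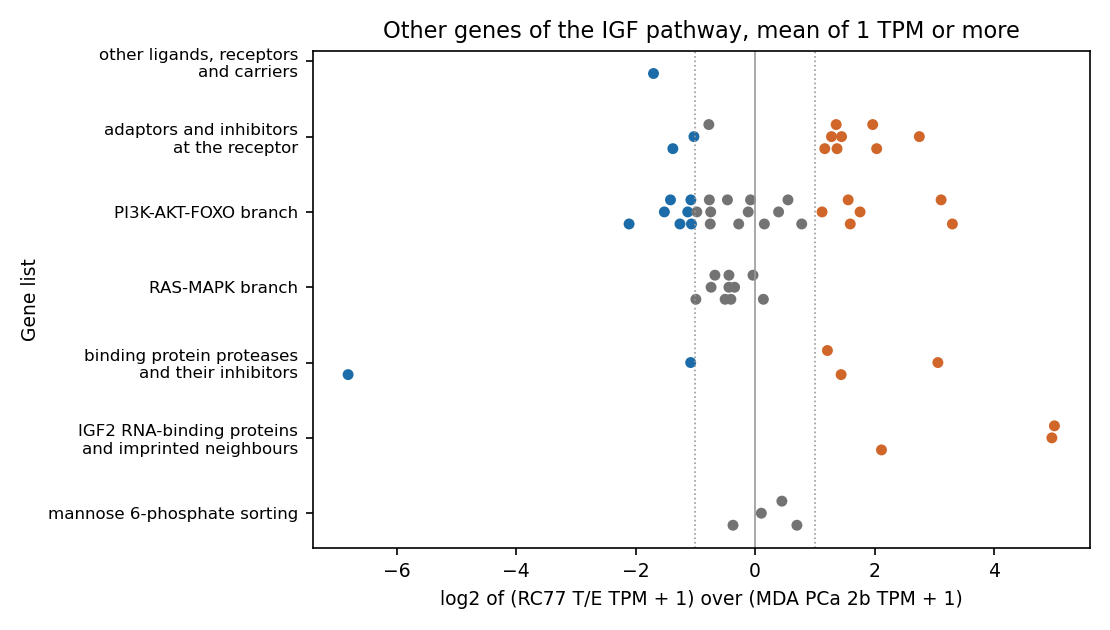
Log2 ratio between the lines, with 1 TPM added and open decimal marks at the lowest position, for 59 further IGF pathway genes in 7 lists (points; dotted lines mark 2-fold, orange higher in RC77 T/E, blue higher in MDA PCa 2b). The 10 RAS-MAPK and 4 mannose 6-phosphate sorting genes lie inside 2-fold, as most expressed genes do, of which 39.3% lie apart. On the RC77 T/E side, 8 of 11 adaptors and inhibitors lie beyond 2-fold, beside 19.4% of the expressed genes.

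In the phosphoinositide 3-kinase, AKT and FOXO branch, genes lay apart in both directions. Of its 25 genes, 6 lay 2-fold or more toward RC77 T/E, beside 19.4% of the expressed genes, and 7 toward MDA PCa 2b, beside 20.0%. The latter count was 9 at the highest position of the decimal mark, for which no share was computed. FOXO1, which encodes a transcription factor that insulin and IGF signalling keep out of the nucleus, was at 2.33 TPM in RC77 T/E cells against 0.103 TPM in MDA PCa 2b. SGK1, a kinase gene related to AKT, was 16.9-fold higher in RC77 T/E cells with its mark open. PIK3R3, a regulatory subunit of the kinase, was at 3.46 TPM in RC77 T/E cells against 18.3 TPM in MDA PCa 2b. RHEB, the activator of the mTOR kinase, was at 40.5 against 27.4 TPM, and FOXO3 lay inside 2-fold at a ratio of 0.576.
The RAS-MAPK branch held 10 of 10 genes inside 2-fold, or 9 with open marks at the highest position. Most expressed genes also lay inside 2-fold, since 39.3% of them lay apart with open marks at the lowest position. The median log2 ratio of this branch was -0.44, which lies further to the MDA PCa 2b side than that of the expressed genes. Its most abundant members at the lowest position, MAP2K2 and HRAS, were at ratios of 0.751 and 0.733. All 4 mannose 6-phosphate sorting genes stayed inside 2-fold at either position, M6PR among them, beside the same share of 39.3% apart over all expressed genes. GNPTG was at a ratio of 0.766.
Of 11 proteases that cut binding proteins and inhibitors of these proteases, 5 were expressed and all 5 were at least 2-fold apart, 3 toward RC77 T/E and 2 toward MDA PCa 2b, beside 39.3% apart in either direction over all expressed genes. MMP7, a matrix metalloproteinase that can cut IGFBPs, was at 0.211 TPM in RC77 T/E cells against 136 TPM in MDA PCa 2b. HTRA1, a secreted serine protease with an IGFBP-like domain, was 9.32-fold higher in RC77 T/E cells with its mark open. PAPPA, the protease of IGFBP4, was at 0.0893 against 0.0253 TPM.
The genes of the IGF2 RNA-binding proteins passed 1 TPM in RC77 T/E cells alone for 2 of 3 members, beside 11.0% of all genes that passed in a single line, whichever it was. IGF2BP2 was at 31.7 TPM in RC77 T/E cells against 0.0135 TPM in MDA PCa 2b, and IGF2BP3, an oncofetal member, at 31.0 against 0.0217 TPM. IGF2BP1 was under 1 TPM in both lines, at 0.187 against 0.00171 TPM. They thus differed between lines in which IGF2, from which they take their name, was at 0.260 against 0.0278 TPM. CDKN1C, an imprinted cell cycle inhibitor gene near IGF2, was at 5.09 against 0.403 TPM. The remaining ligand, receptor and carrier genes were low, with IGFALS, the serum partner of IGFBP3, at 0.129 against 0.152 TPM, IGFBPL1 at 0.268 against 0.249 TPM, and INSRR at 0.00866 TPM in RC77 T/E and listed at 0 for MDA PCa 2b.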

How the data were processed

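Paired-end, directional libraries of total RNA, 1 for RC77 T/E and 1 for MDA PCa 2b, were sequenced by the authors. The submitters' processing notes name CASAVA, FastQC 0.11.9, Trimmomatic 0.38, Salmon 1.2.0 and GRCh38. The annotation and the use of strand in counting are not given in the sources used here. The authors deposited TPM values per locus for both lines with their mean and standard error, and used no other normalization that is stated. TPM keeps no read counts, so depth is unknown and no counting interval was given.

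The decimal mark was restored as the report describes. In 22791 rows, 16284 had 1 possible position and 6507 had several. All 1315 loci with 1 position among 1998 loci of the intact supplementary table had the same values there, within rounding. Neither IGF2R nor another gene named here with an open mark is among the loci of that table used here. Open marks were set to the lowest position for counts, ranks, medians and the shares of expressed genes. The 87 rows that repeat a locus were dropped, and loci of the same symbol were summed.

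With 1 library per line there was no test. A gene was called apart at a log2 ratio of 1 (2-fold) or 2 (4-fold) after adding 1 TPM. The text names all 10 members, the other ligand, receptor and carrier genes, and of each further list at most 5 genes with a mean of 1 TPM and a plain ratio of at least 4 (nothing added) and 2 abundant genes inside 2-fold. Some genes that this rule names are not reported here. IRS1, IRS2, GRB10, H19, IGF2BP1 and PAPPA were named after their values were seen, as were the motifs. The members and lists were chosen with earlier results of these data known. Members' positions are those of the table. In GENCODE release 29 (GRCh38), 9 of 10 began and ended within 1 kb of them; IGF2 did not. RefSeq windows were given for 8 of 10 members. INS, INS-IGF2, NRAS, PLAGL1 and RACK1 were not analysed here. Python 3.11.15, numpy 2.4.6 and matplotlib 3.10.9 were used.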

Additional observations from a re-analysis of the deposited data

How the results depend on the processing

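Of 87 alternative values computed, 80 stayed within 1.5 times of the reported value and 7 moved further. The alternatives covered the pseudocount, centring, upper quartile scaling, the open decimal marks, the choice of locus and the thresholds. Part of this agreement was fixed in advance. Each of the 10 genes has 1 locus, so the choice of locus could move none of them, and only IGF2R has an open mark. A change of direction could not occur either. A pseudocount keeps the sign of a ratio, and centring and scaling shifted ratios too little to reverse a log2 ratio of 1 or more, the only ones checked. Adding 0.1 TPM in place of 1 TPM put 5 genes 2-fold or more toward RC77 T/E, with IGF2 and IGF2R added, put 4 genes 4-fold or more toward MDA PCa 2b, with INSR and IGFBP5 added, and moved the median log2 ratio of the 10 genes to 0.89, because a smaller pseudocount widens ratios of low values. It also moved the log2 ratio of IGFBP5 to -3.61 and that of IGF2 to 1.5. A threshold of 5 TPM with IGF2R at its lowest position left 5 genes in RC77 T/E cells in place of 8. Centring on the median of the expressed genes moved IGF2 to 0.45 and IGF2R to 1.12. No paired analysis was possible because 1 library per line leaves nothing to pair. Values near 0, such as 0.0227 TPM for IGFBP6, have no detection limit to be read against, because the depth is unknown.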

Other observations

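The genes nearest to the binding protein genes did not all differ as they did. TNS4, which encodes a tensin of epithelial adhesion sites and lies 18.1 kb from IGFBP4, was at 135 TPM in RC77 T/E cells against 0.158 TPM in MDA PCa 2b, a log2 ratio of 6.87 in the direction of IGFBP4. TOP2A, a gene of dividing cells 25.6 kb on the other side of IGFBP4, had a log2 ratio of 1.36 with its decimal mark open. Beside IGFBP6, SPRYD3 at 18 kb had a log2 ratio of -1.02, opposite to IGFBP6, and SOAT2 at 1.14 kb was at 0.0384 TPM in RC77 T/E and is listed at 0 for MDA PCa 2b. NOA1, 53.2 kb from IGFBP7, had a log2 ratio of -0.42.

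TH, which encodes the first enzyme of catecholamine synthesis and lies 5.54 kb from IGF2, was at 3.59 TPM or more in RC77 T/E cells, up to 359 TPM at the highest decimal position, while IGF2 was at 0.260 TPM there. For MDA PCa 2b, TH is listed at 0. Beside the receptors, PGPEP1L, 3.70 kb from IGF1R, is listed at 0 for RC77 T/E and was at 0.00779 TPM in MDA PCa 2b. ARHGEF18, 54.5 kb from INSR, was at 12.8 against 12.1 TPM, and ZNF557, 24.3 kb on its other side, at 1.56 against 2.56 TPM.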
